A study of Mus musculus with 24 samples.

Results

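The response of cortical neural progenitor cultures to a synthetic glucocorticoid was described across all genes in the 12 cortex libraries of the series, 6 with dexamethasone and 6 with vehicle, out of 24 libraries in all. They were chosen by their titles, which name the cortex, and were analysed together in 1 fit. The cells came from the cerebral cortex of female and male mouse embryos at embryonic day 14.5 and were kept as primary neurospheres, free-floating clusters in which cortical stem cells and their progeny divide. At passage 3 they received 100 nM dexamethasone or ethanol, the vehicle, for 4 hours, and each treatment was represented by 3 female and 3 male cultures. Strain and genotype are not stated in the labels, and the other 12 libraries, from hypothalamus, were not used. The labels call the libraries of a group biological replicates without saying whether each came from 1 embryo, 1 litter or a pool, and p-values therefore reflect no more than how these libraries vary.

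Glucocorticoids cross the cell membrane and bind the glucocorticoid receptor, a nuclear receptor held ready in the cytoplasm by heat-shock protein chaperones. The hormone-bound receptor moves to the nucleus, where it activates genes through palindromic response elements and lowers the output of others, among them targets of the AP-1 and NF-kappaB transcription factors. Dexamethasone and related drugs are given before preterm birth to mature the fetal lung and they also reach the fetal brain, where stem and progenitor cells of the cortex express the receptor.

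Promoter windows of 4 genes are printed here because they hold the kinds of motif that were counted near the genes that rose or fell: 1 strongly raised gene with the core of a glucocorticoid response element, and 3 lowered genes with elements of the signal-responsive type. They are not typical. Among those of the 15 largest rises and 15 largest falls that had a window, only Fam107a, Egr2 and Maff had a match. Ptk2b, Zbtb16, Kcnn2, Kcnt1 and Pmaip1 had no window and were not searched. The windows of Fkbp5, Cftr, Hif3a, Chst2, Mertk, Atf3, Fosb, Klf4, Junb and Fos, for example, had none. Fam107a, Egr2 and Maff also have other annotated windows without a match. Each window holds 250 bases before and 50 after an annotated start and was taken from RefSeq (GRCm38.p6). It is written 5′ to 3′ on the strand of the gene, with the motif in capitals. Fam107a encodes an actin-binding protein and had the largest rise; its window on the minus strand, chr14:8309728-8310027, holds ACANNNTGT at position -118 from the start. Egr2, an immediate-early zinc-finger transcription factor, has a CArG box, the binding element of serum response factor, at position -72 of the plus-strand window chr10:67537619-67537918. Maff, a small Maf transcription factor, has the cyclic AMP response element TGACGTCA at position -29 of the plus-strand window chr15:79347270-79347569. Dusp1, a phosphatase that inactivates MAP kinases, has the same element at position -143 of the minus-strand window chr17:26508423-26508722.
Fam107a: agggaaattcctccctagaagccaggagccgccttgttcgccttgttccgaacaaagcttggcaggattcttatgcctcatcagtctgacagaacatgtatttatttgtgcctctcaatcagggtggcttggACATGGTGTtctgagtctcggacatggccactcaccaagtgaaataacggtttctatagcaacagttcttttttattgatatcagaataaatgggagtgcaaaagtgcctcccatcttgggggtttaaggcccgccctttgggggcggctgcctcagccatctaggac
Egr2: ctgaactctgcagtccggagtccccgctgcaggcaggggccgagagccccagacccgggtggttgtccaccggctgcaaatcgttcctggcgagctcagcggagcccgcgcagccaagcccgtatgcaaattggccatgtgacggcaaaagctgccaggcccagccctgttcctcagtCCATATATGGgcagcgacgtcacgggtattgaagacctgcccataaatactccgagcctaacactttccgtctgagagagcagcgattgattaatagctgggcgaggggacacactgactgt
Maff: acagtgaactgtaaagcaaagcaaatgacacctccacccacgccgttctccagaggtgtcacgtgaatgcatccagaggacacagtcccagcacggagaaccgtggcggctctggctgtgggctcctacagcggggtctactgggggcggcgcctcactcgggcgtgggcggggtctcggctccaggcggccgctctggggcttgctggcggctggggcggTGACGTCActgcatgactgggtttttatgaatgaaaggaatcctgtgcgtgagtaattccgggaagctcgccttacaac
Dusp1: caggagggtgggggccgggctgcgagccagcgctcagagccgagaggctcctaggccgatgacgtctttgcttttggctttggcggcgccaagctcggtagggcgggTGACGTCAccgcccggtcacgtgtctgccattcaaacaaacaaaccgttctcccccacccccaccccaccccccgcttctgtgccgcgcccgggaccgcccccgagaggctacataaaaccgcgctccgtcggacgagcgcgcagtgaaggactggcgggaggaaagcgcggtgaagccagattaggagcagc

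Each library had between 16.39 and 20.94 M reads assigned to genes. In all, 13130 genes reached 1 read per M (RPM) in at least 6 of the 12 and were tested. Levels below are the authors' normalized signal in RPM, given as the lowest, median and highest of the 6 libraries of a group, and changes are differences of log2(RPM + 1) with their standard error, which understates the change of genes at low levels. Both libraries of female replicates 2 and 3 stood apart. On the first principal component, with 51.8% of the variance, the 2 vehicle libraries of these replicates lay at 24.7 and 11.5 and the other 4 between -39.1 and -33.8. The 2 dexamethasone libraries lay at 60.2 and 43.7 and the other 4 between -0.37 and 1.94. On this component the treatments separated within both sets, and counts are also given for the other 8 libraries, an alternative chosen after seeing the data. In the bulk RNA of a culture, fewer cells of a type and less RNA per cell cannot be told apart.

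Dexamethasone changed 5065 of the 13130 genes, 38.6% (limma, Benjamini-Hochberg adjusted p under 0.05). Of these, 2663 genes rose (20.3% of those tested) and 2402 fell (18.3%). Which direction was the more frequent depended on the processing. There were 2082 rises and 2792 falls with scaling by the sum of reads outside mitochondrial and ribosomal RNA entries, 2436 and 3261 without the filter on low values, and 2463 and 2776 with edgeR. The median change was 0.35 among the genes that rose, with an interquartile range of 0.25 to 0.50, and -0.51 among those that fell, from -0.82 to -0.34, while the median over all genes tested was 0.04. At 2-fold or more, 142 genes rose and 392 fell (534 genes, 4.07% of those tested), a number that was 997 with edgeR, 1693 with DESeq2 and 288 with a pseudocount of 5. At 4-fold or more the numbers were 28 and 66, and at 8-fold or more 8 and 15. The 6 libraries of the treatments did not overlap at all for 2342 genes (17.8%), 464 of which also passed at 2-fold or more. For 8810 genes (67.1%) the 95% interval of the change lay within 1.5-fold in either direction, and for 2555 genes (19.5%) within 1.2-fold. In the 8 libraries other than female replicates 2 and 3, 4268 genes rose and 3211 fell.

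The direction of change differed with the level of a gene. Among 2224 genes with a mean under 5 RPM, 166 rose and 560 fell. Between 100 and 500 RPM, 642 of 2243 genes rose and 287 fell, and at 500 RPM or more 45 of 175 rose and 15 fell. Changes of 2-fold or more, shown in the plot of change against level, were 18 rises and 120 falls under 5 RPM, 63 rises and 120 falls between 20 and 100 RPM, and 29 rises and 30 falls between 100 and 500 RPM.

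The largest rises came from very low or low levels. Fam107a was at 0.0537, 0.297 and 0.676 RPM with vehicle and at 111, 129 and 173 RPM with dexamethasone, a log2 change of 6.67 ± 0.12 (limma, adjusted p = 2.67e-11). The 6 vehicle libraries together held 35 of its reads and the 6 dexamethasone libraries 15194. Cftr, the cyclic AMP-regulated chloride channel, was at 0.329, 0.440 and 0.733 RPM with vehicle and at 60.2, 72.6 and 97.4 RPM with dexamethasone, a change of 5.67 ± 0.11. Both genes were under 1 RPM in every vehicle library and above 60 RPM in every dexamethasone library. Hif3a, a subunit of the hypoxia-inducible factors, went from 0.113, 0.459 and 0.806 RPM to 29.996, 32.5 and 48.6 RPM (4.68 ± 0.14). Ptk2b, a tyrosine kinase of the focal adhesion kinase family, went from 0.104, 0.552 and 1.64 RPM to 23.9, 35.5 and 47.1 RPM (4.45 ± 0.23). Zbtb16, a BTB zinc-finger repressor also called PLZF, was detected in all vehicle libraries at 2.70, 4.02 and 5.24 RPM and reached 66.3, 76.05 and 96.8 RPM (4.01 ± 0.14). None of these 5 genes overlapped between treatments in any library.

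The other genes among the 15 largest rises ranged widely in their level with vehicle. Fkbp5, a co-chaperone that lowers the hormone affinity of the receptor, was at 24.7, 39.1 and 41.1 RPM and rose to 296, 324 and 358 RPM (3.17 ± 0.11, adjusted p = 4.43e-09). Chst2, a carbohydrate sulfotransferase, rose from 67.6, 101 and 109 RPM to 615, 762 and 844 RPM (3.02 ± 0.12). Mertk, a receptor tyrosine kinase used in the clearance of dying cells, rose from 12.1, 16.1 and 21.4 RPM to 78.6, 98.4 and 146 RPM (2.61 ± 0.14). Lipid-related genes were among them: Mfsd2a, a transporter of lysophosphatidylcholine, rose from 9.76, 14.1 and 18.2 RPM to 86.3, 106 and 133 RPM (2.84 ± 0.14), and Plin4, a lipid droplet coat protein, from 0.0548, 0.157 and 0.451 RPM to 4.39, 7.22 and 14.2 RPM (2.88 ± 0.20). So were genes of ion transport, with changes of 3.00 ± 0.31 for the calcium-activated potassium channel Kcnn2, 2.68 ± 0.07 for the sodium-activated potassium channel Kcnt1 and 2.83 ± 0.29 for the sodium/calcium exchanger Slc24a4. Ada, which breaks down adenosine, changed by 2.80 ± 0.14 and Dnah9, an axonemal dynein heavy chain, by 2.90 ± 0.14. The groups overlapped for none of the 15 genes.

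Among the 15 largest falls, Atf3, a stress-induced factor of the ATF/CREB family, was at 82.4, 119 and 127 RPM with vehicle and at 2.15, 2.40 and 3.80 RPM with dexamethasone, a log2 change of -4.98 ± 0.13 (limma, adjusted p = 5.12e-10). Fosb, an AP-1 subunit, fell from 17.7, 27.4 and 30.2 RPM to 0.108, 0.326 and 0.529 RPM (-4.32 ± 0.13). Klf4, a zinc-finger factor, fell from 54.3, 68.9 and 90.5 RPM to 2.63, 3.50 and 4.45 RPM (-4.00 ± 0.14). For these 3 genes the highest dexamethasone library was far below the lowest vehicle library. Junb fell from 75.8, 89.96 and 109.7 RPM to 5.73, 7.52 and 9.04 RPM (-3.44 ± 0.10), and Fos from 197, 207 and 364 RPM to 19.6, 20.9 and 30.9 RPM (-3.22 ± 0.14). Adamts1, a secreted metalloproteinase, fell from 143, 296 and 342 RPM to 13.99, 32.8 and 37.8 RPM (-3.13 ± 0.24). Pmaip1, the pro-apoptotic protein Noxa, fell from 95.4, 149.9 and 186 RPM to 8.47, 18.2 and 22.7 RPM (-3.07 ± 0.17). Gadd45b (-3.48 ± 0.13), Hspa1b (-3.47 ± 0.19), Hspa1a (-3.38 ± 0.23), Egr2 (-3.35 ± 0.29), Chac1 (-3.23 ± 0.18), Fosl2 (-3.21 ± 0.23), Trib3 (-3.13 ± 0.19) and Maff (-3.08 ± 0.20) completed the 15, and the treatments overlapped for none of them. The plot of levels by library shows 12 genes of this account.

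**Figure D1:**
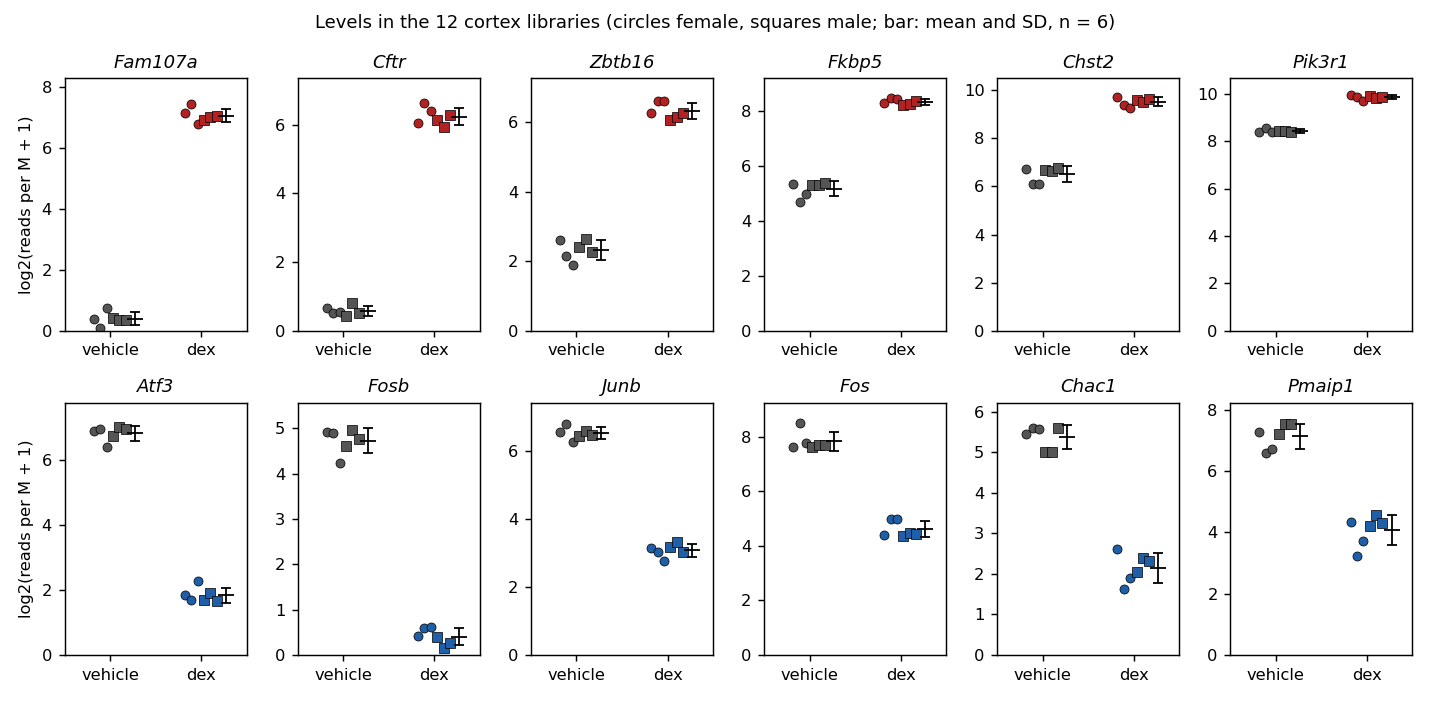
Level of 12 genes in each of the 12 libraries (log2(RPM + 1), vertical axis from 0), with vehicle in grey and dexamethasone in red or blue, circles for female and squares for male cultures, and a bar for the mean and SD of 6. The treatments do not overlap for any of the 12 genes, and the fall of Atf3 (-4.98) and the rise of Fam107a (6.67) are visible in each sex.

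Of 32 listed glucocorticoid targets, genes known from other tissues to respond to the hormone, 29 were tested. Of these 14 rose, 6 fell and 9 did not pass, with a median change of 0.70. Of all tested genes 20.3% rose and 18.3% fell. Beside the genes above, Tsc22d3, the anti-inflammatory leucine zipper protein GILZ, rose by 2.25 ± 0.13, Pdk4, which restrains pyruvate oxidation, by 2.16 ± 0.65, Klf9 by 2.06 ± 0.07 and Klf15 by 1.87 ± 0.26, both hormone-responsive zinc-finger factors, and Glul, glutamine synthetase, by 1.87 ± 0.17. The 6 genes that fell included widely used target genes. Dusp1 was at 43.99, 75.1 and 78.5 RPM with vehicle and at 8.59, 28.1 and 30.8 RPM with dexamethasone (-1.61 ± 0.23, adjusted p = 0.000246), with no overlap between the groups. Cebpb, a factor of inflammation and differentiation, changed by -1.14 ± 0.11, and Cdkn1a, the cell-cycle inhibitor p21, by -1.11 ± 0.14. Sgk1, a kinase that regulates ion transport, was at 35.5, 70.3 and 86.8 RPM with vehicle and at 21.1, 25.6 and 63.2 RPM with dexamethasone (-0.9951 ± 0.30, adjusted p = 0.021), and its groups overlapped. This call was lost in 6 of 30 alternatives, among them leaving out male vehicle replicate 2 or 3 or male dexamethasone replicate 2. Ddit4 (0.24), Errfi1 (0.00), Nfkbia (-0.04) and Txnip (-0.03) did not pass. Without female replicates 2 and 3, 15 members rose and 7 fell.

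Of 18 tested genes of the receptor, its chaperones and its coregulators, out of 21, 2 rose and 5 fell, with a median of -0.09; 38.6% of all tested genes passed, a share near that of the list. Nr3c1, the glucocorticoid receptor itself, was at 111, 126 and 147 RPM with vehicle and at 90.6, 109 and 126 RPM with dexamethasone (-0.23 ± 0.07), with overlapping groups. The coactivator gene Ncoa1 rose by 0.66 ± 0.11 and the corepressor gene Ncor1 by 0.27 ± 0.04. The acetyltransferase genes Ep300 (-0.50 ± 0.07) and Crebbp (-0.38 ± 0.07) fell. Nr3c2, the mineralocorticoid receptor, had a change of 0.44 and did not pass. With female replicates 2 and 3 left out, 8 members fell.

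Immediate-early genes, which cells induce within minutes of a signal without new protein synthesis, were lowered almost throughout. Of 32 listed genes 31 were tested and 30 fell, and for those 30 the treatments did not overlap; the median change was -2.37. All AP-1 subunits of the list fell, from Jund at -0.82 ± 0.09 and Jun at -2.14 ± 0.10 to Fosb at -4.32 ± 0.13. The zinc-finger factors Egr1 (-2.37 ± 0.36), Egr3 (-2.48 ± 0.23) and Egr4 (-2.02 ± 0.18) and the orphan nuclear receptors Nr4a1 (-2.94 ± 0.16), Nr4a2 (-1.20 ± 0.15) and Nr4a3 (-2.45 ± 0.12) fell with Egr2. Egr1 was at 103, 147 and 206 RPM with vehicle and at 9.66, 42.5 and 45.7 RPM with dexamethasone. Ier2 changed by -2.98 ± 0.12, and Myc, the growth-promoting factor, by -0.99 ± 0.09. Zfp36, an RNA-binding protein that destabilises cytokine mRNAs, changed by -1.96 ± 0.07, and Srf, the serum response factor, by -1.10 ± 0.10. Btg2, at -0.06, was the member that did not pass; without female replicates 2 and 3 all 31 tested members fell.

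Genes of the integrated stress response, which the factor ATF4 induces when translation initiation is restrained, fell in 18 of 20 members, with a median of -1.23. Atf4 was at 494, 521 and 576 RPM with vehicle and at 97.7, 139 and 164 RPM with dexamethasone (-1.9992 ± 0.10). Its targets Chac1, a glutathione-degrading enzyme, and Trib3, a pseudokinase, were among the largest falls, and Ppp1r15a, the phosphatase subunit that restores translation, fell from 94.5, 103 and 138 RPM to 12.1, 13.5 and 17.9 RPM (-2.81 ± 0.10). Ddit3, the factor CHOP, changed by -2.58 ± 0.11 and Asns, asparagine synthetase, by -1.17 ± 0.16. The amino acid transporter genes Slc7a11 (-2.20 ± 0.22), Slc7a1 (-1.92 ± 0.24), Slc3a2 (-1.19 ± 0.06) and Slc7a5 (-1.15 ± 0.10) fell too. Psat1, a serine synthesis enzyme, rose by 0.30 ± 0.05 and its neighbour in the pathway, Phgdh, had a change of 0.16 that did not pass.

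Genes of protein folding in the endoplasmic reticulum gave another picture: of 18 members 7 rose and 2 fell, with a median of 0.12. Sel1l, an adaptor of endoplasmic reticulum-associated degradation, rose from 100.3, 105 and 110.3 RPM to 137, 143 and 166 RPM (0.47 ± 0.05), and the chaperone gene Dnajc3 changed by 0.46 ± 0.06. Herpud1 (-1.67 ± 0.11) and Dnajb9 (-1.29 ± 0.18) fell, and Hspa5, the chaperone BiP, had a change of 0.09 that did not pass. With scaling by the sum of reads outside mitochondrial and ribosomal RNA entries 3 members rose, and 4 rose without male vehicle replicate 1 or 3. Over the 8 libraries other than female replicates 2 and 3, 6 rose and 4 fell. Cytosolic heat-shock genes fell in 7 of 18 members and rose in 1, with a median of -0.08, against 18.3% lower and 20.3% higher of all tested genes. The 1 rise was of Cryab (0.38), whose call was lost in 20 of 30 alternatives. Hspa1b was at 26.6, 38.9 and 58.6 RPM with vehicle and at 1.55, 2.92 and 3.68 RPM with dexamethasone, and its near-identical neighbour Hspa1a, from which its reads may not be separable, at 20.2, 34.7 and 52.1 and 1.07, 2.83 and 3.03 RPM. The co-chaperone genes Bag3 (-1.06 ± 0.12) and Dnajb1 (-0.85 ± 0.09) fell, whereas Hspa8 (0.08), Hsf1 (-0.18) and Hspd1 (0.01) did not pass.

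Targets of the tumour suppressor p53 fell in 18 of 20 members, with a median of -1.38. Mdm2, the ubiquitin ligase of p53, was at 216, 357 and 458 RPM with vehicle and at 84.04, 101 and 104 RPM with dexamethasone (-1.73 ± 0.17). The apoptosis genes Pmaip1, Bbc3 (-2.21 ± 0.09), Fas (-1.29 ± 0.13) and Bax (-0.38 ± 0.10) fell, as did the growth arrest genes Gadd45a (-1.70 ± 0.13) and Gadd45b. Gdf15, a secreted stress factor, fell from 25.4, 62.9 and 90.2 RPM to 1.88, 8.15 and 9.91 RPM (-2.92 ± 0.30). Sesn1, a leucine sensor of the mTOR pathway, was the exception: it rose from 34.9, 37.8 and 57.01 RPM to 149, 174 and 301 RPM (2.19 ± 0.17), with no overlap. Perp, at -0.36, did not pass. Of 16 tested oxidative stress genes 9 fell and none rose (median -0.35), led by Srxn1, a peroxiredoxin-repair enzyme, which went from 49.4, 129 and 186 RPM to 10.6, 13.4 and 15.2 RPM (-2.96 ± 0.26), and Hmox1, heme oxygenase, at -2.34 ± 0.13. Nqo1 (0.01) and Prdx1 (-0.15) did not pass.

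Inflammatory genes were also lowered. Of 18 tested genes of the NF-kappaB list, out of 24, 13 fell and 1 rose (median -0.85). Cxcl10, a chemokine, was at 4.05, 5.79 and 14.2 RPM with vehicle and at 0, 0.102 and 0.331 RPM with dexamethasone (-2.78 ± 0.22), and Tnfrsf12a, the TWEAK receptor, went from 53.7, 111 and 120.1 RPM to 3.64, 16.8 and 20.5 RPM (-2.88 ± 0.30). The subunit genes Rela (-0.95 ± 0.07), Relb (-1.12 ± 0.16) and Nfkb2 (-0.66 ± 0.09) fell and Nfkb1 rose by 0.31 ± 0.07. Ptgs2, cyclooxygenase, changed by -1.53 ± 0.43. All 10 microglial marker genes, among them Cx3cr1 and Csf1r, were under 1 RPM in every library.

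Feedback inhibitors of MAP kinase signalling fell in 9 of 19 tested members and rose in none (median -0.77). Dusp8 fell from 54.5, 66.5 and 89.6 RPM to 9.53, 10.7 and 16.6 RPM (-2.41 ± 0.12), and Dusp5 from 23.5, 40.8 and 48.6 RPM to 4.45, 6.16 and 7.54 RPM (-2.42 ± 0.16). Dusp4, like these a dual-specificity phosphatase, changed by -1.96 ± 0.38. The Sprouty gene Spry4 had a change of -1.47 that did not pass, and Dusp6 one of 0.34. In the 8 libraries other than female replicates 2 and 3, 13 members fell and 4 rose. Among growth factors and their receptors, 9 of 20 tested members fell and 1 rose (median -0.27). The ligand genes fell most: Hbegf from 54.6, 114 and 154 RPM to 8.40, 16.7 and 21.96 RPM (-2.68 ± 0.18), and Bdnf and Pdgfa with changes of -1.45 ± 0.15 and -1.32 ± 0.13. Among receptors, Fgfr3 rose from 224, 253 and 355 RPM to 431, 467 and 529.7 RPM (0.80 ± 0.11), Fgfr1 (-0.43 ± 0.12) and Met (-1.15 ± 0.09) fell, and Egfr, at 0.02, did not pass. Without female replicates 2 and 3, 4 members of this list rose.

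The pathway of leukemia inhibitory factor, a cytokine that drives astrocyte formation through gp130 and STAT3, changed in opposite ways at different steps. The receptor gene Lifr rose from 98.03, 105 and 109 RPM to 223, 239 and 268 RPM (1.1998 ± 0.05, adjusted p = 7e-09), and the kinase gene Jak2 by 0.63 ± 0.08. The ligand gene Lif fell from 1.29, 4.25 and 6.33 RPM to 0.0627, 0.177 and 0.378 RPM (-1.89 ± 0.27). The feedback inhibitors Socs1 (-2.09 ± 0.08), Socs2 (-0.93 ± 0.18), Socs3 (-1.55 ± 0.25) and Cish (-1.13 ± 0.14) all fell. Il6st (0.09), which encodes gp130, and Stat3 (-0.20) did not pass. In all, 3 of 17 tested members rose and 8 fell, with a median of -0.27, against 20.3% and 18.3% of all tested genes.

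Genes of the FOXO factors and of restraint on insulin and mTOR signalling went both ways. Of 18 tested members 4 rose, near the 20.3% of all tested genes, and 8 fell (median -0.12), against 18.3%. Pik3r1, the regulatory subunit of phosphoinositide kinase, rose from 336, 341 and 380.4 RPM to 841, 943 and 1006 RPM (1.42 ± 0.05, adjusted p = 6.25e-09). Foxo1 (-0.80 ± 0.12), the muscle-atrophy ubiquitin ligase Fbxo32 (-1.45 ± 0.19) and the translation repressor Eif4ebp1 (-1.57 ± 0.20) fell. Without female replicate 1 the median was 0.02, with the opposite sign. With female replicates 2 and 3 left out, 18 members of the integrated stress response list, 19 of the p53 list, 14 of the NF-kappaB list and 10 of the leukemia inhibitory factor list fell, and 2, 1, 3 and 3 rose.

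**Figure D2:**
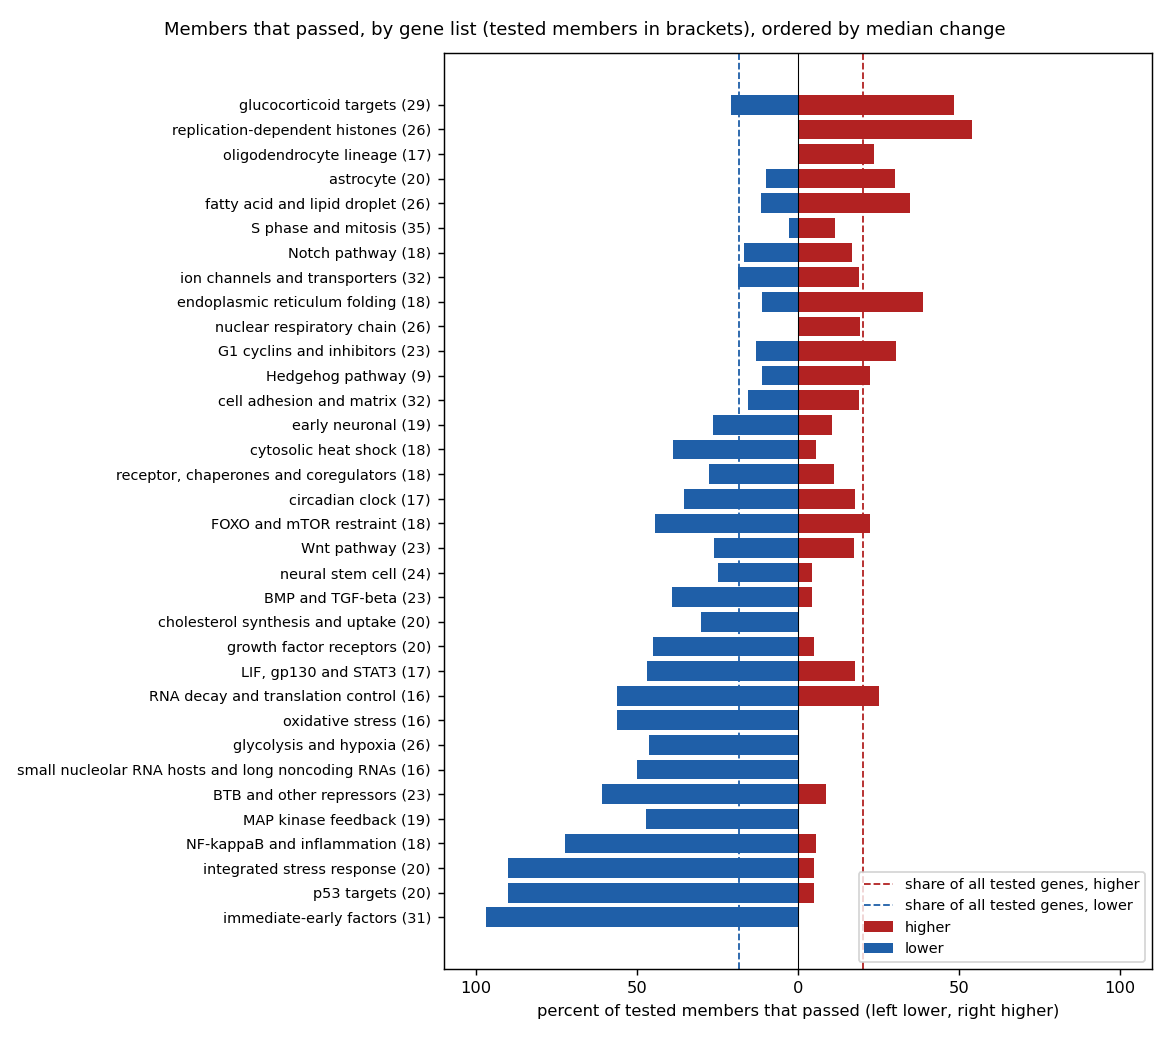
Share of the tested members of each of 34 lists that rose (red, to the right) or fell (blue, to the left), in percent, ordered by the median change of the list, with the number of tested members in brackets. Dashed lines mark the shares over all tested genes, 20.3% higher and 18.3% lower; the immediate-early list, at the bottom, has 30 of 31 members on the left.

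Metabolic genes differed by pathway. Of 26 tested genes of glycolysis and hypoxia, 12 fell and none rose (median -0.36); the glycolytic regulator Pfkfb3 fell from 104, 132 and 145 RPM to 23.3, 35.4 and 46.9 RPM (-1.86 ± 0.16), and the angiogenic factor Vegfa (-1.27 ± 0.28) and the glucose transporter gene Slc2a1 (-1.0011 ± 0.19) fell with it. Over the 8 libraries other than female replicates 2 and 3, 2 genes of this list rose and 14 fell. Cholesterol genes fell in 6 of 20 tested members and rose in none (median -0.23), among them Hsd17b7, an enzyme of cholesterol synthesis, from 32.2, 66.995 and 71.1 RPM to 17.6, 38.1 and 43.1 RPM (-0.79 ± 0.23), with overlapping groups. That number was 10 without female dexamethasone replicate 1, 3 without female dexamethasone replicate 3, male vehicle replicate 2 or male dexamethasone replicate 1, and 13 without female replicates 2 and 3. Genes of fatty acid synthesis and lipid droplets rose in 9 of 26 tested members and fell in 3 (median 0.20). Thrsp, a regulator of lipogenesis, rose from 8.83, 15.3 and 30.6 RPM to 76.8, 102 and 139 RPM (2.60 ± 0.29), and Acsl3, an acyl-CoA synthetase of lipid droplets, by 0.91 ± 0.14. Fasn, fatty acid synthase, changed by -0.39 ± 0.12 and Pnpla2, the triglyceride lipase, by -0.54 ± 0.12. Of this list 5 rose without male vehicle replicate 3 or male dexamethasone replicate 2 or with that scaling by the sum of reads, and 17 without female replicates 2 and 3. Nuclear genes of the respiratory chain rose in 5 of 26 members, by 0.35 at most (Ndufs1), and none fell, against 20.3% higher and 18.3% lower of all tested genes. The number that rose was 8 with TMM scaling, 2 with that scaling by the sum of reads and 10 without female vehicle replicate 3.

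Replication-dependent histone genes, whose mRNAs accumulate in S phase, rose in 14 of 26 tested members and fell in none, with a median of 0.50. Hist1h1b was at 85.1, 188 and 210.4 RPM with vehicle and at 163, 455 and 487 RPM with dexamethasone (1.11 ± 0.23), and Hist2h2ac at 29.3, 47.7 and 56.8 and 52.1, 115 and 127 RPM (1.08 ± 0.20). The groups overlapped for every member of the list. Reads of these near-identical genes cannot be assigned with certainty. The number that rose was 25 without female dexamethasone replicate 2. It was 9 without female vehicle replicate 2, without male vehicle replicate 2 or 3, and without male dexamethasone replicate 1 or 2. In the 8 libraries other than female replicates 2 and 3, 25 rose and 1 fell. Other genes of S phase and mitosis passed in few cases, 4 higher and 1 lower of 35 (median 0.16). The mitotic kinesin gene Kif20a had a change of 0.55 ± 0.14 and the replication licensing factor Cdt1 one of -0.89 ± 0.24, while Mki67 (0.45), Pcna (-0.18) and Ccna2 (0.32) did not pass. Of that list 11 rose without female dexamethasone replicate 2, 2 without female dexamethasone replicate 3, male vehicle replicate 2 or 3 or male dexamethasone replicate 3, and 3 fell without female dexamethasone replicate 1. With the 4 libraries of female replicates 2 and 3 left out, 18 rose and 6 fell.

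Regulators of the G1 phase went both ways, and the share that passed was near the 38.6% of all tested genes. Mycl, a Myc family factor, rose from 23.1, 29.3 and 59.8 RPM to 72.1, 82.9 and 149 RPM (1.43 ± 0.23), and Mxd4, an antagonist of Myc, from 107, 113 and 201 RPM to 289, 309 and 406 RPM (1.28 ± 0.14). Mycn fell from 6.49, 8.27 and 10.4 RPM to 1.09, 1.91 and 2.05 RPM (-1.76 ± 0.13). The kinase gene Cdk6 rose by 0.64 ± 0.10 and the retinoblastoma-like gene Rbl2 by 0.71 ± 0.12, and Ccnd1, cyclin D1, had a change of -0.92 that did not pass. In all, 7 of 23 members rose and 3 fell (median 0.09), with 5 lower without female dexamethasone replicate 1 and 7 lower without female replicates 2 and 3.

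Of 24 genes that define neural stem cells 1 rose and 6 fell (median -0.17), against 20.3% and 18.3% of all tested genes. Nes (-0.05), Sox2 (0.03) and Pax6 (0.20) did not pass. Hes1, an effector of Notch signalling that maintains progenitors, fell from 84.2, 88.6 and 91.1 RPM to 20.4, 64.1 and 72.5 RPM (-0.86 ± 0.24, adjusted p = 0.0153), and Hey1, of the same family, from 71.4, 98.995 and 212 RPM to 40.7, 56.7 and 64.2 RPM (-1.06 ± 0.23). Msi2, an RNA-binding protein of progenitors, rose from 248, 259.8 and 319 RPM to 439.6, 465 and 538 RPM (0.80 ± 0.06). Without female replicates 2 and 3, 6 members rose and 11 fell. In the Notch pathway 3 of 18 members rose and 3 fell (median 0.15), near the shares of all tested genes, 20.3% and 18.3%. Lfng, the glycosyltransferase that tunes the response of Notch to its ligands, rose from 119, 122 and 138 RPM to 272, 419 and 442 RPM (1.55 ± 0.11), while the ligand genes Jag1 (-1.20 ± 0.25) and Jag2 (-1.16 ± 0.12) fell. In that pathway 5 members rose without female dexamethasone replicate 1 or with TMM scaling, 1 rose without female vehicle replicate 1, female dexamethasone replicate 2, male vehicle replicate 2 or male dexamethasone replicate 3, and 9 rose and 5 fell without female replicates 2 and 3.

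Among other developmental signals, the BMP and TGF-beta list had 1 higher and 9 lower of 23 tested members (median -0.22). The ligand gene Bmp2 fell from 2.03, 3.75 and 4.98 RPM to 0.142, 0.289 and 0.753 RPM (-1.68 ± 0.18), and the antagonist gene Fst (-1.64 ± 0.27) and the inhibitory genes Smad7 (-1.43 ± 0.18), Bambi (-1.27 ± 0.13) and Tgif1 (-1.75 ± 0.11) fell too. Of its members 3 rose without female vehicle replicate 1 and 5 without female replicates 2 and 3. In the Wnt pathway 4 of 23 tested members rose and 6 fell (median -0.15), against 20.3% and 18.3% of all tested genes. The receptor genes Fzd5 (-1.25 ± 0.13), Fzd7 (-0.69 ± 0.07) and Fzd8 (-0.88 ± 0.13) were among the falls. With female replicates 2 and 3 left out, 11 members of the Wnt list fell. Hedgehog genes showed 2 rises and 1 fall among 9 tested (median 0.08), against the same shares of all tested genes. Gli2, a transcriptional effector, was at 0.81 ± 0.14, and 5 members rose without those replicates.

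Among differentiation genes, of 20 listed for astrocytes 6 rose and 2 fell (median 0.28), against 20.3% and 18.3% of all tested genes. Gjb6, an astrocytic connexin, was at 0, 0.0828 and 0.591 RPM with vehicle and at 1.55, 4.72 and 20.2 RPM with dexamethasone (2.53 ± 0.40), with no overlap. Sox9, a glial transcription factor, fell from 127, 131 and 194 RPM to 51.6, 60.5 and 113 RPM (-1.04 ± 0.17), and Gfap, at 0.74, did not pass. The number that rose was 3 without female dexamethasone replicate 2 or 3, male vehicle replicate 2 or 3 or male dexamethasone replicate 3, and 13 without female replicates 2 and 3. The summed level of 10 astrocyte markers was 885 to 1198 RPM in 4 vehicle libraries and 2229.8 and 3099 RPM in female replicates 3 and 2, against 1509 to 1907 RPM and 2981 and 4597 RPM with dexamethasone (exact stratified permutation test, two-sided p = 0.1925). Of 17 tested oligodendrocyte lineage genes 4 rose, near the 20.3% of all tested genes, and none fell (median 0.42). Olig2, a lineage factor, rose from 302, 375 and 415 RPM to 378, 548 and 579 RPM (0.48 ± 0.10). Over the 8 libraries other than female replicates 2 and 3, 14 members of the oligodendrocyte list rose and 1 fell. Early neuronal genes showed 2 rises and 5 falls among 19 tested (median -0.07), against 20.3% and 18.3% of all tested genes. Map2, a dendritic microtubule protein, rose from 723, 799 and 929 RPM to 999, 1153 and 1275 RPM (0.50 ± 0.07), and the interneuron factor Dlx2 (-0.87 ± 0.21) and Gad1 (-0.99 ± 0.23), the enzyme of GABA synthesis, fell from low levels.

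Of 32 tested cell adhesion and matrix genes 6 rose and 5 fell (median 0.07), both near the shares of all tested genes, 20.3% and 18.3%. Beside Ptk2b, the integrin gene Itgb5 rose by 0.45 ± 0.08, whereas Itga5, the fibronectin receptor, changed by -1.25 ± 0.24 and its ligand Fn1 by -0.96 ± 0.13. Thbs1, thrombospondin, fell from 5.69, 13.7 and 15.3 RPM to 1.78, 2.25 and 2.41 RPM (-1.98 ± 0.18). In the 8 libraries other than female replicates 2 and 3, 12 rose and 8 fell. Ion channels and transporters showed 6 rises and 6 falls among 32 (median 0.14), again near those shares, from Cftr at the top to Slc30a1, a zinc exporter, which went from 178, 194 and 273 RPM to 40.4, 46.5 and 48.02 RPM (-2.15 ± 0.10); 11 rose without those replicates. Clock genes showed 3 rises and 6 falls among 17 tested (median -0.11), against 20.3% and 18.3% of all tested genes. Per2 rose from 16.6, 19.2 and 23.4 RPM to 24.3, 41.1 and 48.2 RPM (0.87 ± 0.16), and the repressor genes Nfil3 (-1.78 ± 0.22), Bhlhe40 (-1.27 ± 0.15) and Nr1d1 (-1.24 ± 0.13) fell. The list of BTB and other repressors had 2 rises and 14 falls among 23 (median -0.50). Klf13 rose from 66.3, 81.7 and 119.8 RPM to 191, 209.9 and 303 RPM (1.39 ± 0.11), and Hic1 (-2.19 ± 0.35), Klf5 (-2.15 ± 0.20) and Klf16 (-1.72 ± 0.08) fell most. Without female dexamethasone replicate 1, 4 members of that list rose. Regulators of RNA decay and translation showed 4 rises and 9 falls among 16 (median -0.31). Eif1, which selects the start codon, fell from 141, 146 and 169 RPM to 58.9, 64.1 and 77.5 RPM (-1.17 ± 0.05), and the antiproliferative gene Tob1 from 127, 134 and 148 RPM to 51.3, 60.6 and 73.5 RPM (-1.14 ± 0.07), while its paralog Tob2 rose by 0.72 ± 0.14.

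The span of a gene on the chromosome went with the direction of its change. Among 1190 protein-coding genes spanning under 5 kb, 13.4% rose and 22.5% fell, and among 3015 genes spanning 60 kb or more, 30.9% rose and 11% fell, with medians of -0.03 and 0.14. The classes between were intermediate, at 14.5% and 21% for 3653 genes of 5 to 20 kb and 22.7% and 17.7% for 3725 genes of 20 to 60 kb. The median span was 41.05 kb for genes that rose, 19.2 kb for genes that fell and 25.9 kb for all 11583 tested. In each library the median log2 level of the long genes minus that of the short genes was taken as a single value. It was 0.31, 0.36 and 0.46 (lowest, median and highest) with vehicle and 0.50, 0.63 and 0.75 with dexamethasone, without overlap (exact permutation test within sexes, two-sided p = 0.005, the smallest 400 arrangements allow; adjusted over 19 library values, p = 0.0106). In the 8 libraries other than female replicates 2 and 3 it was 0.31 to 0.37 and 0.50 to 0.63. Other library values moved with treatment: genes at 1 RPM or more numbered 13179 to 13350 with vehicle and 12808 to 13102 with dexamethasone, and mitochondrial ribosomal RNA (mt-Rnr2) took 1.71% to 2.67% and 1.09% to 1.96% of the reads. Their part in the relation to span was not tested.

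**Figure D3:**
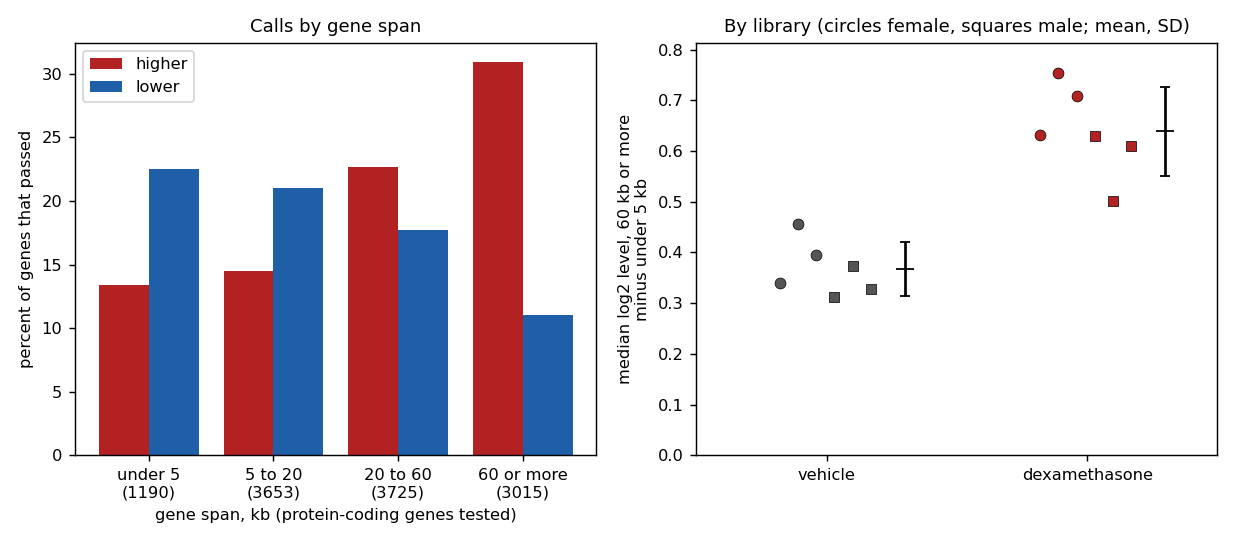
Left, percent of tested protein-coding genes that rose (red) or fell (blue) in 4 classes of gene span in kb, with the number of genes in brackets; right, the median log2 level of genes of 60 kb or more minus that of genes under 5 kb in each library (circles female, squares male, bar for mean and SD of 6). The 6 dexamethasone libraries, at 0.50 or more, all lie above the 6 vehicle libraries, at 0.46 or less.

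Genes of small nuclear and nucleolar RNAs that passed all fell. Of 95 tested snoRNA genes, which guide chemical modification of ribosomal and other RNAs, 66 fell and none rose (median -0.44), and of 29 snRNA genes of splicing and related complexes 17 fell and none rose (median -0.46). Of all tested genes 18.3% fell and 20.3% rose. None of the snoRNA or snRNA genes rose under any of the alternatives. The share of reads in snoRNA genes was 0.147%, 0.198% and 0.221% with vehicle and 0.116%, 0.142% and 0.179% with dexamethasone, with overlap (exact permutation test, p = 0.005). Most snoRNAs are encoded in introns of other genes, so reads of host transcripts can be counted with them. The part of such reads in the falls above was not tested. A list that joins snoRNA host genes and other long noncoding RNA genes had 16 tested members out of 26. Of these 8 fell and none rose (median -0.42). Snhg12 went from 52.9, 80.6 and 85.6 RPM to 19.95, 21.8 and 26.4 RPM (-1.67 ± 0.12). Snhg1 changed by -1.21 ± 0.08 and Neat1, the RNA scaffold of nuclear paraspeckles, by -1.12 ± 0.12. Without female replicates 2 and 3, 3 members of that list rose. The spliceosomal Rnu1a1 went from 3.9996, 7.10 and 9.65 RPM to 0.428, 0.674 and 0.921 RPM (-2.16 ± 0.17). The antisense gene Gm12981 fell from 9.07, 10.9 and 13.1 RPM to 1.07, 1.58 and 2.25 RPM (-2.21 ± 0.13) and the largest rise among genes annotated as noncoding in GENCODE with a mean of 5 RPM or more in the higher group was of A430106G13Rik, from 2.14, 3.89 and 4.41 RPM to 5.81, 9.18 and 10.8 RPM (1.04 ± 0.18). Whether the counting used the strand is not stated, and an antisense gene cannot then be told apart from its partner.

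The 10 called genes with the most reads had changes between -0.32 and 0.62 on the log2 scale. Qk, an RNA-binding protein of glia, rose from 1188, 1324 and 1627 RPM to 1892, 2135 and 2178 RPM (0.62 ± 0.08). Nedd4, a ubiquitin ligase (0.28 ± 0.05), Ctnnb1, beta-catenin (0.24 ± 0.05), and Slc1a3, a glutamate transporter of radial glia (0.36 ± 0.07), rose without overlap of the groups. Vim, vimentin, fell from 2562, 2767 and 2908 RPM to 2072, 2337 and 2436 RPM (-0.27 ± 0.06). Ckb (0.24 ± 0.09), Scd2 (0.20 ± 0.07), Atp5a1 (0.16 ± 0.05) and Gpm6b (0.40 ± 0.15) passed with overlapping groups, and their calls were lost in 17, 15, 16 and 19 of 30 alternatives. Rmrp, the RNA of ribonuclease MRP, changed by -0.32 ± 0.10 and lost its call in 6.

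Some changes differed between libraries by more than the treatment effect of most genes. Mical2, an actin-oxidising enzyme, was at 57.0, 10.05 and 14.98 RPM in female vehicle replicates 1, 2 and 3 and at 36.1 to 42.8 RPM in male ones, whereas all dexamethasone libraries lay between 72.9 and 89.1 RPM (1.42 ± 0.34). Arc, an activity-regulated synaptic gene, was at 33.1, 1.19 and 4.19 RPM in female dexamethasone replicates 1, 2 and 3 and at 36.6 to 37.8 RPM in male ones, against 53.4 to 152.0 RPM with vehicle (-2.67 ± 0.56). For Sgk1 the dexamethasone libraries of female replicates 2 and 3, at 63.2 and 44.2 RPM, lay within the vehicle range, and the other 4, at 21.1 to 26.8 RPM, lay below it. Cyr61 (-2.55 ± 0.25), a secreted matricellular protein, and Rgs16 (-1.85 ± 0.31), a regulator of G protein signalling, fell in every library. Against the vehicle mean of the same sex, as plotted by library, each of the 3 female falls was smaller than each of the 3 male ones. That female mean includes low values: Rgs16 was at 43.7, 12.3 and 11.999 RPM in female vehicle replicates 1, 2 and 3. Cyr61 was at 82.7, 39.8 and 29.8 RPM. Against the same-numbered vehicle library, Rgs16 went from 43.7 to 6.24 RPM in female replicate 1 and from 47.4 to 10.3 RPM in male replicate 1. For that number the female fall was the larger, and for female replicates 2 and 3 the falls stayed smaller. A difference between the sexes was not tested. In contrast, Lifr, Mertk, Chst2, Junb and Klf4 changed by similar amounts in all 6.

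**Figure D4:**
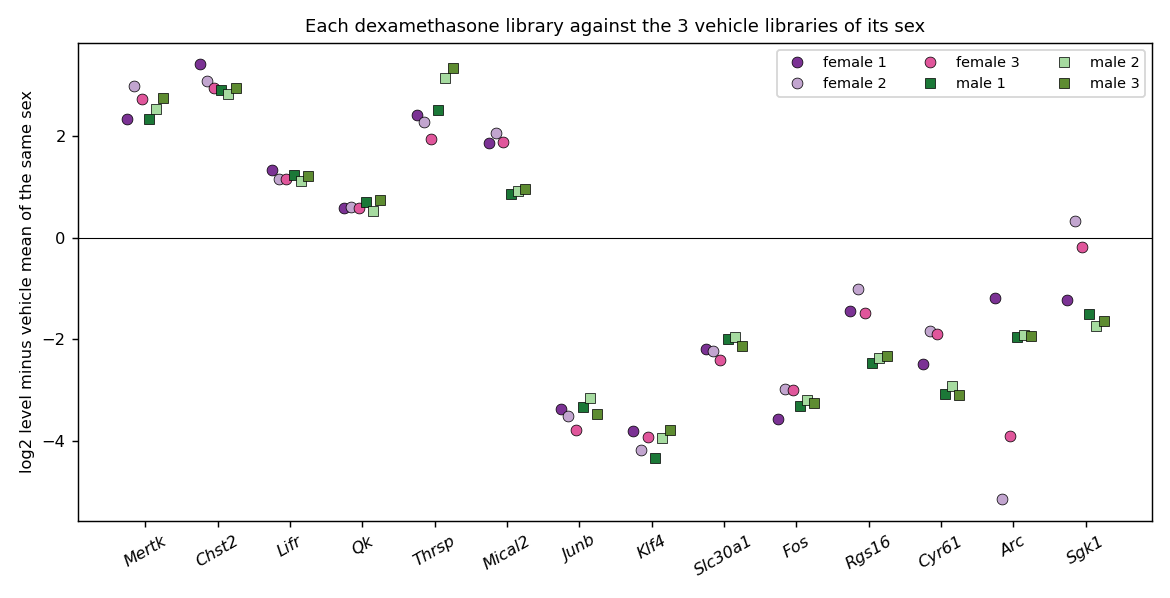
Change of 14 genes in each of the 6 dexamethasone libraries, as log2(RPM + 1) minus the mean of the 3 vehicle libraries of the same sex (circles female, squares male, a colour for each replicate). For Lifr the 6 libraries lie between 1.11 and 1.32, whereas for Arc they range from -5.15 to -1.19 and for Sgk1 from -1.74 to 0.32.

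Markers of cells that should be rare in neurospheres were low. The summed level of 10 endothelial markers was 7.79, 11.1 and 12.4 RPM with vehicle and 5.96, 7.17 and 8.29 RPM with dexamethasone, and 5 of them, including Cdh5 and Cldn5, were under 1 RPM in every library. That of 10 mesenchymal and contractile markers was 10.5, 12.6 and 14.0 RPM and 5.43, 8.20 and 9.67 RPM, with Myh11, Rgs5, Col1a2, Lum and Dcn under 1 RPM throughout (both exact permutation p = 0.005). The 9 erythroid markers summed to 1.86 RPM at most, and the 10 microglial markers to 0.831 RPM. Ependymal and choroid plexus markers summed to 22.8, 27.1 and 43.5 RPM and 23.4, 26.4 and 30.2 RPM, with 6 of 10 under 1 RPM everywhere. In contrast, 10 neural stem markers summed to 7061, 7914 and 8400 RPM with vehicle and 7304, 7552 and 8201 RPM with dexamethasone. Their groups overlapped (exact permutation test, p = 0.54). Of these 10 markers 1 rose (Slc1a3) and 2 fell (Vim among them), so the sum does not show that each member was unchanged. Summed markers of neurons were 965, 1064 and 1125 RPM with vehicle and 1232, 1372 and 1483 RPM with dexamethasone, and those of the oligodendrocyte lineage 1369, 1523 and 1918 RPM and 2015, 2085 and 2756 RPM (exact permutation test, both p = 0.005). Most of the neuron sum was Map2, at 723 to 929 RPM with vehicle and 999 to 1275 RPM with dexamethasone. Of 9 tested neuron markers only Map2 rose and 1 fell (median 0.13), so the sum does not show a shift of neuron markers in general. Most of the oligodendrocyte sum was Olig1 and Olig2. Olig1 was at 695 to 800 RPM with vehicle and 819 to 1134 RPM with dexamethasone, and Olig2 at 302 to 415 and 378 to 579 RPM. Of 9 tested oligodendrocyte markers 2 rose, near the 20.3% of all tested genes, and none fell (median 0.47). This sum too does not show a shift of the markers in general. With female replicates 2 and 3 left out the oligodendrocyte sums were 1369 to 1535 RPM and 2015 to 2097 RPM. Of the 10 cortex markers Emx1 was under 1 RPM in every library, and the summed level of the list was 157.5 to 243 RPM with vehicle and 195 to 238 RPM with dexamethasone. The part of such shifts in the gene changes above was not tested.

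Promoter windows were available in RefSeq for 9490 of the tested genes (72.3%), 12231 windows in all, and were searched on both strands. The core palindrome ACANNNTGT was in 4.04% of all windows, in 9.15% of the 153 windows of genes raised at 2-fold or more and in 4.30% of the 349 windows of genes lowered at 2-fold or more. Beside Fam107a, the raised genes with it were Ank2, Bcl2l1, E230001N04Rik, Frmd4b, Glul, Map7d2, Nek7, Pcolce2, Phyhd1, Plce1, Slc10a6 and Usp54. The full palindrome of the element, which contains that core, was in 1 window of 12231. The AP-1 element, TGACTCA or its complement TGAGTCA, was in 3.40% of all windows, 4.58% of those raised and 6.30% of those lowered at 2-fold or more, among them Lif, Met, Lmna, Ddit3 and Zyx. TGACGTCA, which does not contain the AP-1 element, was in 3.12%, 3.92% and 4.01%. The CArG box was in 1.29%, 0.654% and 2.58%, the last from 9 windows of Dusp5, Egr2, Herpud1, Rnd3, Srf and Zfp36. These are matches of letters in 300 bases around a start, not measured binding sites, and the differences were not tested.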

How the data were processed

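RNA of primary cortex neurospheres was sequenced as stranded total RNA libraries, each on 2 lanes. Reads were aligned with TopHat2 (2.0.13 and 2.0.9) and counted with HTSeq on GRCm38, per the submitters' processing notes; the gene annotation, the strand setting and the role of each version are not given in the sources used here. The authors deposited a table for each sex whose signal columns hold reads per gene divided by a library factor in M reads; all values were whole multiples of what 1 read is worth, within 0.01 read, so reads were recovered (16.39 to 20.94 M a library). The tables also hold the authors' ratio, log2 fold and p-value columns, deposited for 3 against 3 comparisons and not used here. No per-sample column was left unassigned.

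The signal, called RPM here, was analysed as log2(signal + 1) with limma 3.58.1 (R 4.3.3, intensity trend, table and treatment as terms) over the 13130 of 38920 genes at 1 or more in at least 6 of 12 libraries, with Benjamini-Hochberg adjustment and a threshold of 0.05. The scaling was made by the authors within each table, and the treatment term compares libraries within tables. Of the 38924 entries listed for each sex, 27 had names turned into dates and 4 of these, sharing 2 names, were left out. Fold changes of low genes are understated by the pseudocount. Spans and gene classes came from GENCODE M21, which matched 12401 of the tested genes (94.4%). Values of whole libraries were compared by exact two-sided permutation within sexes (400 arrangements, 19 values adjusted together), and summed marker levels are sums of RPM over a list. Alternatives were other pseudocounts, filters, scalings, edgeR 4.0.16 and DESeq2 1.42.0 on the recovered reads, a replicate block, and leaving out libraries. Scripts were tested on simulated data.

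Named are the 15 largest rises and falls with at least 5 RPM in the higher group and the same sign in all 6 same-numbered library pairs, the 10 called genes with the highest mean, the 6 called genes whose change varied most, the 3 largest rises and falls of each list, the 5 largest noncoding changes each way and the markers; further list members were named after their values were seen. The lists and the choice of libraries were made with earlier results of these data known, and the account is descriptive of these libraries. Counting error only is covered where a number of reads is given.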

Additional observations from a re-analysis of the deposited data

Results flagged for a closer look

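In 124 groups of 6 libraries tested for a library far from the others by the gap to its nearest neighbour over the range of the group, 5 were flagged; chance flags about 1 in 20 groups. Atf3 was at 3.80 RPM in female dexamethasone replicate 3, above 2.75 RPM in the next library of that treatment and still far below all vehicle libraries. Fos was at 364 RPM in female vehicle replicate 2, against 218.0 RPM in the next vehicle library. Qk was at 1891 RPM in male dexamethasone replicate 2, the lowest of its treatment, against 2128 RPM in the next. Mical2 was at 89.1 RPM in female dexamethasone replicate 2, against 78.7 RPM in the next. The summed level of the oligodendrocyte lineage markers was 2756 RPM in female dexamethasone replicate 2, against 2181 RPM in the next. Of the 5, 3 were libraries of female replicate 2, which also stood apart on the first principal component.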

How the results depend on the processing

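The number of genes called was 4344 to 5525 when 1 library was left out and 3646 to 6594 when both libraries of a sex and number were left out; the ranges were 2180 to 2923 and 1778 to 3636 for rises, 2135 to 2602 and 1868 to 2958 for falls, and 495 to 606 and 510 to 574 for changes of 2-fold or more. Without female replicates 2 and 3 there were 4268 rises. At 2-fold or more, edgeR called 997 genes, DESeq2 1693, and limma with a pseudocount of 5 called 288. No genes called in both the main analysis and an alternative changed direction, and 155 of the 192 named genes were called in every alternative.

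Same-numbered libraries deviated together with correlations of 0.87, 0.82 and 0.50 in females and 0.36, 0.02 and 0.39 in males, and because that of male number 2 was near 0 the numbers were not taken as pairs; every library pair but male number 2 correlated best with its own number, a hint from the data only. With the replicate block 7962 genes were called (4473 higher), and with edgeR and the replicate block 8236 (4202 higher, 4034 lower, 1009 at 2-fold or more). The paired sign-flip test of the astrocyte marker sum, a difference of 795 RPM, gave an exact p = 0.03125, the smallest possible with 6 pairs.

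Of the list medians 5 changed sign: that of the FOXO list to 0.021 without female replicate 1, and that of the early neuronal list to 0.048 with a filter at 5 RPM and to 0.0038, 0.053 and 0.045 without female dexamethasone replicate 2, male vehicle replicate 1 or male dexamethasone replicate 3. Leaving out 1 library moved the latter median between -0.17 and 0.053. The share of calls that rose was 52.6%, 57.6% with a filter at 5 RPM, 56.0% with TMM scaling, 48.2% with DESeq2, 47.0% with edgeR, 42.8% without a filter and 42.7% with scaling by the sum of reads outside mitochondrial and ribosomal RNA entries. Depth limits genes near 1 RPM, which rest on about 16 to 21 reads a library, and the deposited scaling differed from TMM by up to 4.12%.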

Other observations

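Long noncoding RNA classes held fewer rises than falls. Of 189 tested lincRNA genes 17 rose and 34 fell, of 157 antisense genes 15 rose and 45 fell, and of 140 processed transcripts 13 rose and 33 fell, against 2468 rises and 2028 falls among 11583 protein-coding genes. Among noncoding rises, B930095G15Rik changed by 0.88 and Gm15941 by 0.81 on the log2 scale. Among noncoding falls, B930036N10Rik changed by -1.94 and Gm13067 by -1.76. These classes are mostly at low levels, and their part in the difference between classes was not tested.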
